A study of Homo sapiens with 66 samples.

Results

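The general transcription factors and the TBP-associated factors (TAFs) were followed at the transcript level in KBM7 cells, a near-haploid human line derived from chronic myeloid leukaemia. The set comprised 32 listed genes, matched by symbol to the Ensembl identifiers of the count table: TBP and the TAFs of TFIID, and the subunits of TFIIA, TFIIB, TFIIE, TFIIF and TFIIH. Of these, 29 had a row among the 13331 gene rows, and all 29 passed the filters on low counts. TAF9, GTF2H2 and GTF2H4 had no row under that symbol and were not analysed here.

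These proteins assemble with RNA polymerase II at promoters. TFIID, made of TBP and the TAFs, recognises the core promoter, TFIIA and TFIIB stabilise TBP on DNA and connect it to the polymerase, and TFIIF arrives with the polymerase. TFIIE recruits TFIIH, whose core helicases open the DNA and whose kinase module phosphorylates the polymerase tail. Mediator bridges enhancer-bound factors to this assembly, BET proteins read acetylated chromatin, and CDK9, the kinase of P-TEFb, releases paused polymerase into elongation.

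The series held 22 groups of 3 libraries, 66 in all, from cells harvested after 6 h. CDK9-dTAG, MED1-dTAG, MED6-dTAG, MED10-dTAG, MED12-dTAG, MED14-dTAG, MED26-dTAG, MED28-dTAG and MED31-dTAG cells, in which the named protein carries a degradation tag, received 500 nM dTAG7 or DMSO. Wild-type KBM7 cells received 500 nM dTAG7, 100 nM dBET6 (a degrader of BET proteins), 250 nM THAL-SNS-032 (a degrader of CDK9) or DMSO. dTAG7 is aimed at the tagged protein and not at its transcript, whose level may still change. Protein levels were not measured in these libraries, and whether a line is a single clone is not given in the sources used here. Each group was 3 wells of a plate, and a p-value here reflects only how much such wells vary. With bulk RNA, fewer cells and less RNA per cell cannot be told apart.

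Between 439261 and 4337368 counts per library fell on endogenous genes, with a median of 3016290.5, while the spike-ins took 10950 to 72684. The 9 libraries of dTAG7-treated CDK9-dTAG cells, dBET6 and THAL-SNS-032 held 439261 to 1612092 endogenous counts, against 1159717 to 4337368 in the other 57. Levels are given as CPM per spike-in, that is, counts divided by the spike-in total of the library and rescaled so that an average library reads as CPM. Tests were made on that scale and on the TMM scale, which sets each gene against the bulk of the other genes. On the spike-in scale the median gene moved by a log2 fold change of -2.93 in dTAG7-treated CDK9-dTAG cells, -3.67 with dBET6, -2.86 with THAL-SNS-032 and -0.69 in dTAG7-treated MED14-dTAG cells. It moved by -0.27 in MED6-dTAG, -0.19 in MED10-dTAG and -0.14 in MED26-dTAG cells, and by no more than 0.09 in the other comparisons. A library stood apart from its replicates in several groups by the chi-square of their counts. The largest values per degree of freedom were 20.2 and 16.3 for replicate A of dTAG7-treated MED6-dTAG cells, and 9.38 and 9.23 for replicate B of DMSO-treated MED12-dTAG cells. In wild-type DMSO libraries the haematopoietic markers MYB and CD34 averaged 741 ± 43 and 183 ± 11.8 CPM (SD, n = 3), the erythroid factor GATA1 only 2.02 ± 1.76, and the B-cell marker MS4A1 had no count. The KBM7 markers CD33 and SPI1 averaged 34.5 and 29.9 CPM and ANK1 0.572 CPM. Of the markers of other cell types, KRT18 averaged 32.9, PECAM1 20.9 and CD3D 15.1 CPM, levels that overlap those of the lower KBM7 markers.

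Promoter sequences are shown for TAF5, which fell furthest, and TAF13, which fell least among members with ample counts. They are also shown for GTF2B and TAF3, which were among the members that differed between Mediator lines. Each is the stretch of 250 bases before the RefSeq start on GRCh38.p14, with capitals marking motif matches on either strand. TAF5 lies at chr10:103367726-103367975 on the plus strand, TAF13 at chr1:109076004-109076253 and GTF2B at chr1:88891568-88891817 on the minus strand, and TAF3 at chr10:7818255-7818504 on the plus strand.
TAF5: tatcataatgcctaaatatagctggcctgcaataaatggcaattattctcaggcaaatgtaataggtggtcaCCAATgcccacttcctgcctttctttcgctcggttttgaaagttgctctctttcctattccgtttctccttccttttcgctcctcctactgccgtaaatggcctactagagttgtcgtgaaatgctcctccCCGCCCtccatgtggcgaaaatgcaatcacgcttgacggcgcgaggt
TAF13: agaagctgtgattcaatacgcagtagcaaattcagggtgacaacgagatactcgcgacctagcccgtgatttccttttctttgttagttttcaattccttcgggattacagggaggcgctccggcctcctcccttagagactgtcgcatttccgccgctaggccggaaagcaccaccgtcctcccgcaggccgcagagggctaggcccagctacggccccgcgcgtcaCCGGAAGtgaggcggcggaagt
GTF2B: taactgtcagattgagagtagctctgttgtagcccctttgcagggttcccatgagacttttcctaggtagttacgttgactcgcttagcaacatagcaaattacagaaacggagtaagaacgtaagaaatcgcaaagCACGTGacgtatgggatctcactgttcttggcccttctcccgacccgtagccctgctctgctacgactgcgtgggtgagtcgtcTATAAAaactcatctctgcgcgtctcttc
TAF3: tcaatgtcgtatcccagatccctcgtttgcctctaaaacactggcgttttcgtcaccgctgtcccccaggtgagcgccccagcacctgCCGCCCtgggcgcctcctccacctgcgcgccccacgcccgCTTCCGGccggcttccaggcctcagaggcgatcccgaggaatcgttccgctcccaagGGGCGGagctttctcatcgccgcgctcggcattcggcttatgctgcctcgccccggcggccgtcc

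In the GTF2B stretch the TATA box letters TATAAA start 29 bases before the annotated start and the E-box letters CACGTG 113 bases before it. Among 33 such stretches of 26 member genes, GTF2B was the gene with TATAAA, which 5.76% of 13706 promoters of genes in the count table also held. The ETS letters CCGGAAG stood in 11 of the 33 stretches (33.3%), against 14.4% of all promoters. These belonged to 10 of the 26 genes, TAF13 and TAF3 among them. The CCAAT letters stood in 27.3% of member stretches (TAF5 and 7 other genes), against 33.0% of all promoters. The GC box GGGCGG stood in 48.5% (15 genes), against 63.6%, and the E-box in 21.2% (5 genes), against 8.38%. The NRF1 consensus, in 1.73% of all promoters, stood in none. The median GC content of member stretches was 57.6%, against 64.8% of all promoters. TAF2, TAF8 and GTF2E2 were not matched to a promoter.

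In the 30 DMSO libraries the members' median levels ran between 2.9 CPM (TAF4) and 268 CPM (TAF1), with a median over members of 65 CPM. The method reads transcript ends, so these levels were not divided by length. TAF4 and CDK7, at 2.9 and 2.95 CPM, were the members with few counts, and their values carry the widest errors. For 10 of the 29 members a gene on the opposite strand that overlaps them also has a row, and whether the counting used strand is not given in the sources used here.

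Every member analysed fell per spike-in in the 3 strongest treatments. All 29 were called lower in dTAG7-treated CDK9-dTAG cells, with dBET6 and with THAL-SNS-032, as were 95.3%, 97.1% and 96.2% of all genes in the same order, so these counts describe the whole transcriptome. In each of these comparisons every treated library lay below every DMSO library for every member. The share of all genes separated in this way was not computed, so whether the separation is particular to the members is not known. The members' median log2 fold change was -3.21 in CDK9-dTAG cells, beside -2.93 for all genes, -3.89 with dBET6, beside -3.67, and -2.78 with THAL-SNS-032, beside -2.86. By TMM 10 members fell and 5 rose in CDK9-dTAG cells, where 27% of all genes fell and 21.1% rose. With dBET6, 11 fell and 1 rose, where 23.2% and 18.2% of all genes did so. With THAL-SNS-032, 5 fell and 2 rose, where 16% and 14.1% did so. The dBET6 and THAL-SNS-032 comparisons share the wild-type DMSO libraries.

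**Figure D1:**
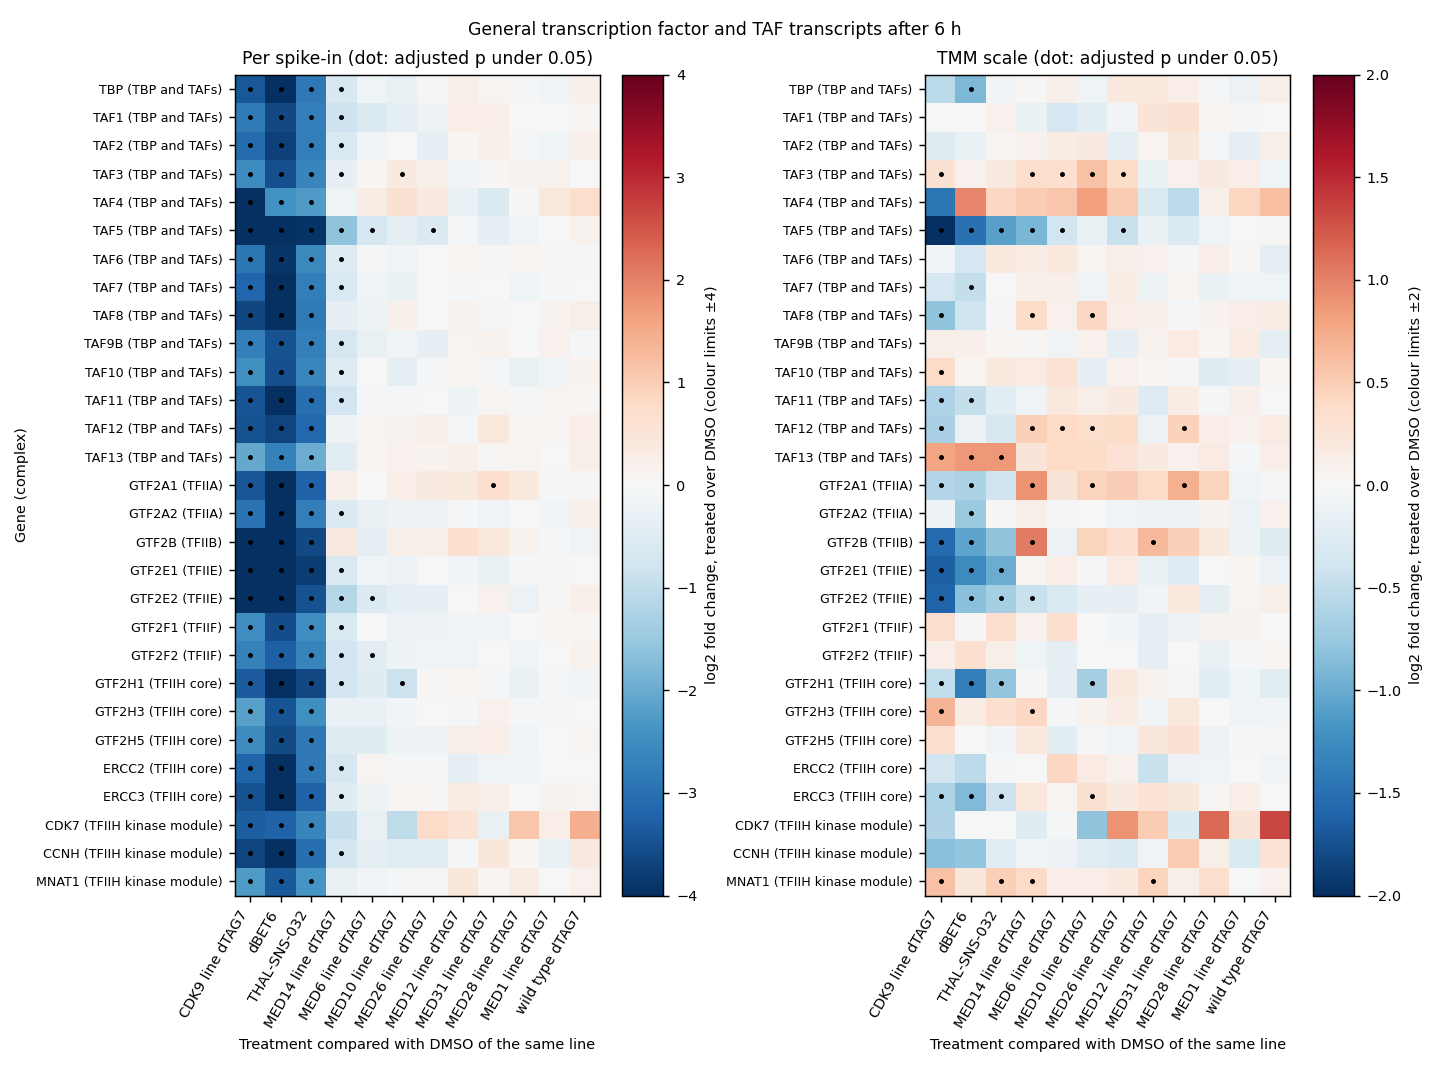
Colour gives the log2 fold change of treated over DMSO cells for 29 members (rows) in 12 comparisons (columns), per spike-in on the left and on the TMM scale on the right, and dots mark an adjusted p under 0.05. Per spike-in the first 3 columns are called for all 29 members and MED14-dTAG for 19, while on the TMM scale TAF5 stays lower across the first 4 columns and TAF13 is higher in the first 3.

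TAF5, a scaffold subunit present in several copies within TFIID, fell furthest in CDK9-dTAG cells and with dBET6 and THAL-SNS-032. It was at 1.24, 3.16 and 1.33 CPM in dTAG7-treated CDK9-dTAG libraries, against 74, 59.3 and 69 CPM in DMSO. It was at 1.34, 2 and 2.84 CPM with dBET6 and at 4.29, 4.28 and 5.15 CPM with THAL-SNS-032, against 72, 68.3 and 64.9 CPM in wild-type DMSO. The treated and DMSO ranges lay far apart. Its log2 fold change per spike-in was -5.36 ± 0.23 (SE; adjusted p = 2.71e-30) in CDK9-dTAG cells, -5.05 ± 0.21 with dBET6 (6.03e-32) and -3.91 ± 0.19 with THAL-SNS-032 (2.92e-28). It also fell on the TMM scale, by -2.55 ± 0.25 (adjusted p = 2.98e-13), -1.5 ± 0.23 (1.7e-07) and -1.09 ± 0.18 (4.42e-06) in the same order, and each of these calls held without any single library. ATP5MD, which overlaps TAF5 on the other strand, changed by -2.21 in CDK9-dTAG cells, -3.18 with dBET6 and -2.45 with THAL-SNS-032 per spike-in. The part of reads from that gene in the TAF5 counts was not tested.

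TAF13, which pairs with TAF11 within TFIID, showed the opposite deviation and was named after its values were seen. It was at 10, 6.86 and 8.63 CPM in dTAG7-treated CDK9-dTAG cells, against 37.5, 34 and 40.9 CPM in DMSO. With dBET6 it was at 2.45, 7.62 and 5.94 CPM and with THAL-SNS-032 at 6.01, 12.3 and 7.41 CPM, against 31.4, 43.8 and 33.2 CPM in wild-type DMSO. Thus TAF13 fell per spike-in, by -2.06 ± 0.25, -2.71 ± 0.26 and -1.99 ± 0.24, and rose on the TMM scale, by 0.79 (adjusted p = 0.0114), 0.87 (0.0115) and 0.87 (0.00747). The TMM call was lost in each comparison without the treated library highest in TAF13: 0.47 (adjusted p = 0.338) without CDK9-dTAG replicate A, 0.43 (0.396) without dBET6 replicate B and 0.24 (0.646) without THAL-SNS-032 replicate B. TAF11, its partner, fell on both scales in CDK9-dTAG cells, by -3.44 ± 0.15 per spike-in and -0.62 ± 0.15 on the TMM scale (adjusted p = 0.000444), and with dBET6, by -4.07 and -0.48 (0.00897).

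TBP, the subunit that binds the TATA element, fell with most genes. It was at 3.58, 3.16 and 4.98 CPM in dTAG7-treated CDK9-dTAG cells, against 39.3, 41.6 and 40.9 CPM in DMSO. It was at 2.01, 1.81 and 2.58 CPM with dBET6 and at 6.29, 5.7 and 7.73 CPM with THAL-SNS-032, against 41, 54.4 and 47 CPM in wild-type DMSO. Per spike-in this was -3.38 ± 0.28, -4.46 ± 0.28 and -2.86 ± 0.24. TBP fell on the TMM scale with dBET6 alone of the 3, by -0.9 ± 0.3 (adjusted p = 0.0123), and gave -0.54 (0.0897) in CDK9-dTAG cells and -0.05 (0.897) with THAL-SNS-032. The dBET6 call was lost in 1 of 6 fits that left out a library.

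TAF1, the largest TFIID subunit and a bromodomain protein, fell by -2.83 ± 0.27, -3.6 ± 0.27 and -2.72 ± 0.26 per spike-in, close to the median gene, and its TMM values were 0.01, 0 and 0.08. It was at 36.6, 32.7 and 38.5 CPM in dTAG7-treated CDK9-dTAG cells, against 275, 270 and 232 CPM in DMSO. Of 14 TFIID genes measured, 4 fell and 3 rose by TMM in CDK9-dTAG cells, shares near the 27% and 21.1% of all genes. With dBET6, 4 fell and 1 rose (23.2% and 18.2% of all genes). With THAL-SNS-032, 1 fell and 1 rose (16% and 14.1%). Leaving out dTAG7 replicate A lowered the number of members called on the TMM scale in CDK9-dTAG cells to 8 of 29. In CDK9-dTAG cells TAF8 (-0.81) and TAF12 (-0.65) fell with TAF5 and TAF11, and TAF3 (0.3) and TAF10 (0.39) rose with TAF13. TAF4 had 2 counts in all in dTAG7-treated CDK9-dTAG libraries, against 20 in DMSO, a ratio 20.7-fold lower with an exact 95% counting interval of 5.03 to 183.

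**Figure D2:**
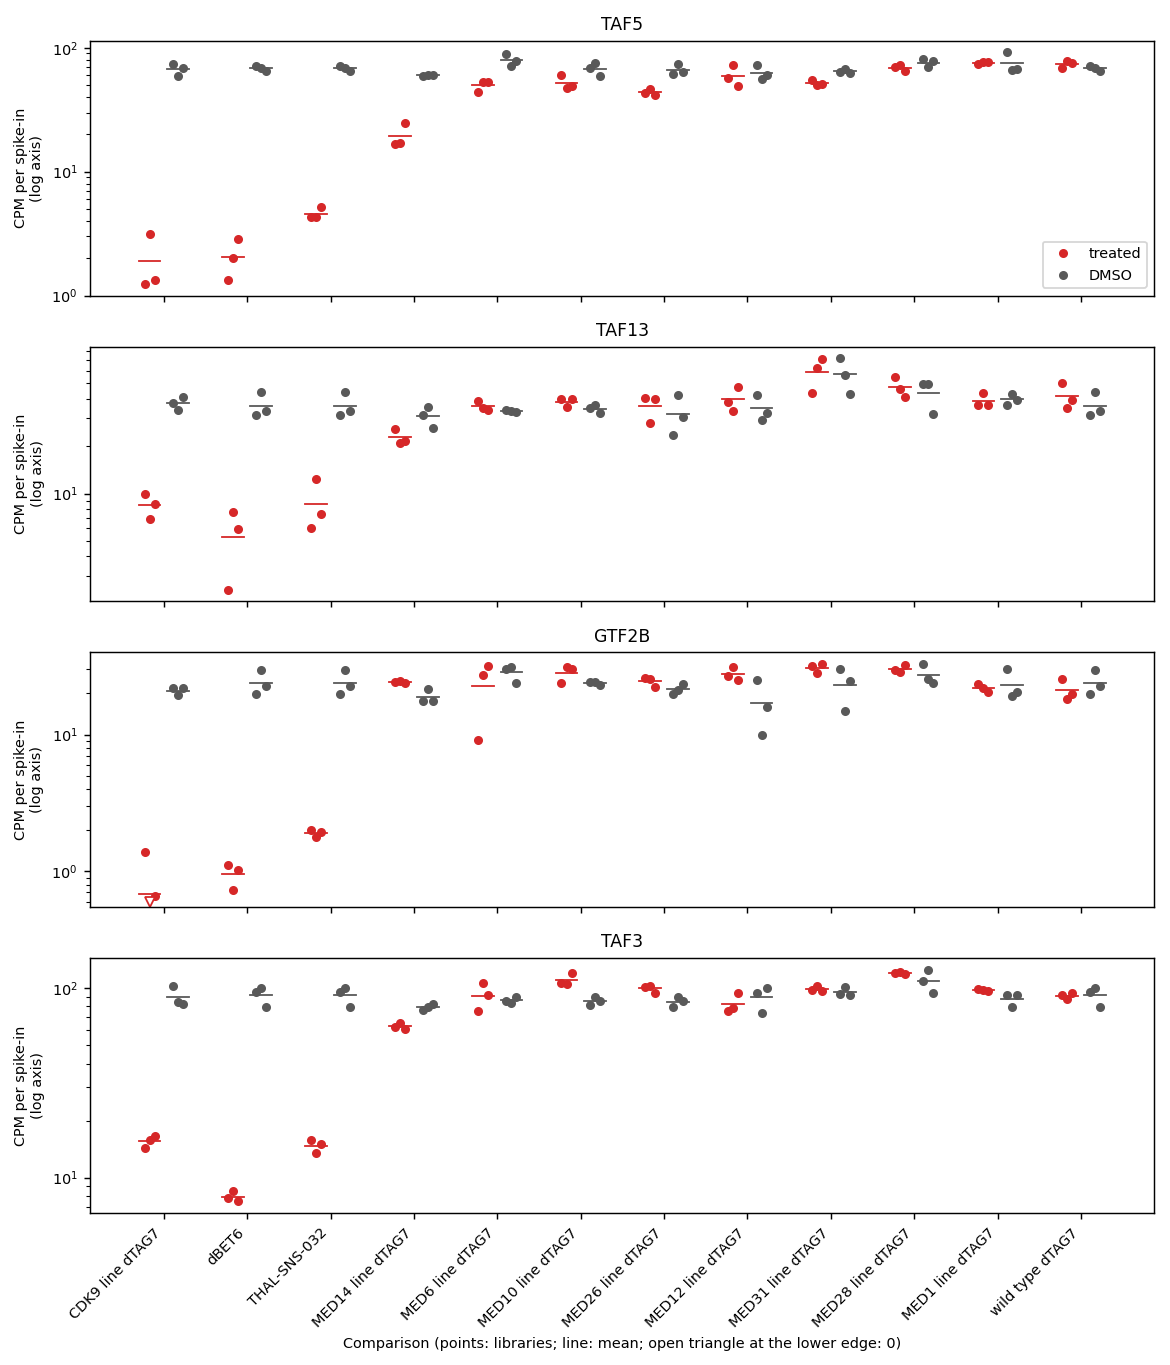
CPM per spike-in on log axes of TAF5, TAF13, GTF2B and TAF3 in each library of the 12 comparisons, treated libraries (red) left of DMSO libraries (grey), with lines for the means of 3 and an open triangle for a library with no count. TAF5 lies between 1.24 and 5.15 CPM in the treated libraries of the first 3 comparisons and between 16.7 and 24.5 CPM in dTAG7-treated MED14-dTAG cells, while GTF2B lies above its DMSO libraries in MED14-dTAG cells.

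GTF2B encodes TFIIB, which joins TBP to the polymerase. Its transcript was at 1.38, 0 and 0.664 CPM (10, 0 and 2 counts) in dTAG7-treated CDK9-dTAG cells, against 21.9, 19.3 and 21.7 CPM in DMSO. With dBET6 it was at 1.11, 0.726 and 1.03 CPM and with THAL-SNS-032 at 2, 1.78 and 1.93 CPM, against 19.9, 29.4 and 22.5 CPM in wild-type DMSO. At these low counts the log2 fold changes per spike-in had wide errors, -4.37 ± 0.41, -4.59 ± 0.38 and -3.61 ± 0.35. By TMM GTF2B fell in CDK9-dTAG cells, by -1.56 ± 0.43 (adjusted p = 0.00181; -2.94 without dTAG7 replicate A), and with dBET6, by -1.06 ± 0.42 (0.0363). The dBET6 call was lost in 4 of 6 fits that left out a library, and with THAL-SNS-032 the value was -0.81 (0.0668). Of the TFIIA genes, GTF2A1, the large subunit precursor, fell on the TMM scale in CDK9-dTAG cells (-0.59, adjusted p = 0.0239) and with dBET6 (-0.63, 0.0382), each lost in 4 of 6 such fits. GTF2A2, the small subunit, fell with dBET6 (-0.75, adjusted p = 0.004).

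Both TFIIE subunits fell beyond the bulk of the genes in all 3 treatments. GTF2E1 was at 2.34, 2.11 and 2.66 CPM in dTAG7-treated CDK9-dTAG cells, against 74, 41.1 and 52.7 CPM in DMSO. GTF2E2 was at 5.92, 6.33 and 8.3 CPM there, against 143, 157 and 135 CPM. Treated and DMSO libraries of either gene were fully separated. Per spike-in this gave -4.48 ± 0.24 for GTF2E1 and -4.43 ± 0.24 for GTF2E2. GTF2E1 fell on the TMM scale by -1.64 ± 0.28 (adjusted p = 1.35e-06) in CDK9-dTAG cells, -1.28 ± 0.28 (0.000169) with dBET6 and -0.99 ± 0.23 (0.000762) with THAL-SNS-032. GTF2E2 fell by -1.6 ± 0.21 (6.73e-09), -0.83 ± 0.21 (0.00105; lost without 1 library, 0.0725) and -0.66 ± 0.18 (0.00448). The TFIIF genes did not follow. GTF2F1, its large subunit, gave 0.34 (adjusted p = 0.059), 0.02 (0.932) and 0.34 (0.0696) on the TMM scale, and GTF2F2, the small one, 0.14 (0.413), 0.32 (0.11) and 0.11 (0.623).

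Among the TFIIH core genes, GTF2H1 (the p62 subunit) and ERCC3 (the XPB translocase) fell most. GTF2H1 was at 2.23, 1.63 and 2.58 CPM with dBET6 and at 5.72, 4.99 and 5.48 CPM with THAL-SNS-032, against 58.5, 79.9 and 61.1 CPM in wild-type DMSO. Its log2 fold change was -4.95 ± 0.24 and -3.62 ± 0.21 per spike-in, and -1.38 ± 0.25 (adjusted p = 6.74e-06) and -0.79 ± 0.2 (0.00139) on the TMM scale. ERCC3 was at 11, 8.97 and 6.97 CPM in dTAG7-treated CDK9-dTAG cells, against 101, 116 and 99.6 CPM in DMSO. Its fall on the TMM scale was -0.62 ± 0.15 (adjusted p = 0.000389) in CDK9-dTAG cells, -0.89 ± 0.17 (2.01e-05) with dBET6 and -0.42 ± 0.14 (0.018) with THAL-SNS-032, the last lost in 2 of 6 fits. GTF2H3 (p34), by contrast, was at 16.4, 17.4 and 15.3 CPM in dTAG7-treated CDK9-dTAG cells, against 69.4, 77.6 and 71.5 CPM in DMSO, and fell by -2.16 ± 0.23 per spike-in while it rose by 0.68 ± 0.19 on the TMM scale (adjusted p = 0.00243; 0.55 and 0.0821 without dTAG7 replicate A). The helicase gene ERCC2 (XPD) gave -0.38 (0.355), -0.52 (0.257) and -0.02 (0.967) on the TMM scale.

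In the kinase module, MNAT1, the assembly factor MAT1, fell by -2.26 ± 0.2 per spike-in in CDK9-dTAG cells and rose on the TMM scale, by 0.59 ± 0.19 (adjusted p = 0.00693; 0.36 and 0.269 without dTAG7 replicate A). CCNH, which encodes cyclin H, gave -0.83 (0.0559), -0.79 (0.118) and -0.22 (0.656) on the TMM scale in CDK9-dTAG cells, with dBET6 and with THAL-SNS-032. CDK7, the kinase itself, had 4 counts in dTAG7-treated CDK9-dTAG libraries against 21 in DMSO. It had 2 with dBET6 and 3 with THAL-SNS-032, against 12 in wild-type DMSO, ratios 12-fold lower (exact 95% counting interval 2.67 to 110) and 7.04-fold lower (1.9 to 38.9).

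**Figure D3:**
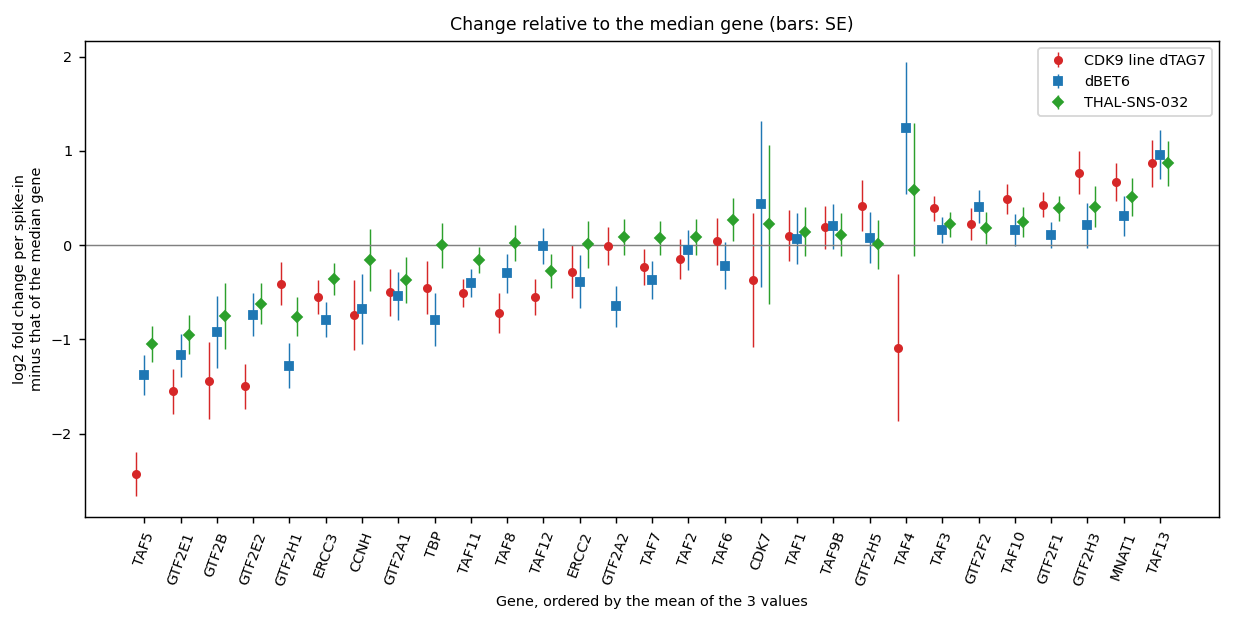
Log2 fold change per spike-in minus that of the median gene, with its SE, for the 29 members in dTAG7-treated CDK9-dTAG cells, with dBET6 and with THAL-SNS-032, each over DMSO, ordered by the mean of the 3. TAF5, GTF2E1, GTF2B and GTF2E2 lie at the low end and TAF13 at the high end, and TAF4 and CDK7 have the widest bars.

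In dTAG7-treated MED14-dTAG cells, where the tag is on the Mediator backbone, 19 of 29 members fell per spike-in and 0 rose. That is 65.5% of members, near the 63.3% of all genes that fell, while 1.7% of all genes rose. The members' median was -0.6, beside -0.69 for all genes. By TMM 2 members fell and 7 rose, where 16.6% of all genes fell and 13.4% rose. TAF5 was at 16.7, 17.2 and 24.5 CPM in dTAG7-treated MED14-dTAG cells, against 58.7, 60.5 and 60.6 CPM in DMSO, and the groups did not overlap. It fell by -1.61 ± 0.16 per spike-in (adjusted p = 2.32e-13) and -0.92 ± 0.14 on the TMM scale (3.45e-07). ATP5MD gave -0.35 per spike-in (0.142). GTF2E2 was at 67.8, 50.4 and 66.5 CPM, against 149, 126 and 138 CPM, which was -1.14 ± 0.18 per spike-in and -0.45 ± 0.14 on the TMM scale (adjusted p = 0.0142; lost in 2 of 6 fits).

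GTF2B and GTF2A1 did not fall with most genes in MED14-dTAG cells. GTF2B was at 24.3, 24.6 and 23.9 CPM in dTAG7-treated libraries, all above the 17.6, 21.6 and 17.5 CPM of DMSO, a log2 fold change of 0.35 ± 0.24 per spike-in (adjusted p = 0.202). GTF2A1 was at 89.5, 65.8 and 84.2 CPM, against 65.2, 72.3 and 72.5 CPM, with overlapping groups and 0.21 ± 0.19 (0.331). Relative to the bulk of genes both rose, GTF2B by 1.04 ± 0.21 (5.96e-05) and GTF2A1 by 0.9 ± 0.15 (2.27e-06), and both calls held without any single library. AL136040.1, which overlaps GTF2A1 on the other strand, gave 1.46 ± 0.67 on the TMM scale (0.0936). Its values were 0.84 in MED10-dTAG and 0.39 in MED31-dTAG cells, and 1.65 in MED6-dTAG cells, where GTF2A1 was not called. The part of reads from that gene in the GTF2A1 counts was not tested. TAF3, the TFIID subunit that reads methylated histone tails, was at 62.7, 65.8 and 60.9 CPM, against 77, 79.4 and 82.5 CPM, so that it fell by -0.34 per spike-in (0.00736) and rose by 0.35 on the TMM scale (0.00736). TAF12 rose by 0.48 ± 0.13 on the TMM scale (0.00265) with -0.2 per spike-in (0.204). TBP was at 23, 33.8 and 24.8 CPM, against 36.2, 47.1 and 40.5 CPM, and fell by -0.65 ± 0.21 per spike-in (0.00479), with 0.03 (0.925) on the TMM scale. Without DMSO replicate A, 5 members in place of 9 were called on the TMM scale.

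The other Mediator lines moved few members. In MED6-dTAG cells 3 members fell per spike-in, where 18.4% of all genes did, and on the TMM scale 1 fell (3.66% of all genes) and 2 rose (2.89%). TAF5 was at 43.6, 53.2 and 53.3 CPM there, against 88.7, 71.3 and 78.7 CPM in DMSO, a fall of -0.67 ± 0.14 per spike-in (adjusted p = 0.000617) and -0.39 ± 0.12 on the TMM scale (0.0394). Without dTAG7 replicate A, the library that stood apart, or DMSO replicate C, 1 member was called per spike-in and 0 on the TMM scale. Without dTAG7 replicates B and C, each left out alone, 5 and 6 were called per spike-in, and the TMM count was 1 without replicate B of either group or DMSO replicate A. The other members that fell per spike-in were GTF2E2 (-0.54, 0.0249) and GTF2F2 (-0.46, 0.0181). In MED26-dTAG cells TAF5 was the member that fell, to 43.5, 46.2 and 41.9 CPM against 61, 73.4 and 64.4 CPM in DMSO, where 2.88% of all genes fell per spike-in. This was -0.59 ± 0.14 per spike-in (0.0102) and -0.45 ± 0.13 on the TMM scale (0.0395; 1.4% of all genes fell). The TMM call was lost in all 6 fits that left out a library, and the spike-in call without DMSO replicate B or dTAG7 replicate A or C. TAF3 rose in MED26-dTAG cells on the TMM scale (0.37, 0.0265; 0.97% of all genes), lost in 5 of 6 such fits.

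Among the Mediator lines, MED10-dTAG cells had the most member calls after MED14-dTAG on the TMM scale, 1 lower (10% of all genes) and 5 higher (8.06%). Together these are 20.7% of members, near the 18.1% of all genes called there in either direction. Per spike-in 1 fell (19%) and 1 rose (2.71%). GTF2H1 was at 44.5, 34.2 and 37 CPM in dTAG7-treated cells, against 71.3, 65 and 75.2 CPM in DMSO, a fall of -0.86 ± 0.17 per spike-in (0.000135) and -0.66 ± 0.14 on the TMM scale (0.000515). TAF3 was at 107, 105 and 120 CPM, against 81.4, 89.8 and 85.5 CPM, a rise of 0.37 ± 0.11 per spike-in (0.0102) and 0.58 ± 0.1 on the TMM scale (1.34e-05). The treated and DMSO libraries of both genes were fully separated. TAF3 kept its TMM call without any single library, and its spike-in call was lost without dTAG7 replicate C (0.31, 0.0918). GTF2A1 (0.45), TAF12 (0.35), TAF8 (0.41) and ERCC3 (0.3) also rose on the TMM scale, with adjusted p between 0.0234 and 0.0431. The TMM count of 6 members was between 2 and 4 whichever library was left out. It was 2 without DMSO or dTAG7 replicate B and 3 without DMSO replicate C.

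In MED31-dTAG cells GTF2A1 was at 132, 130 and 127 CPM with dTAG7, against 110, 58.1 and 79 CPM in DMSO, whose libraries were spread more widely than the treated ones. It rose by 0.66 ± 0.18 per spike-in (0.0284; 0.495% of all genes rose), held only without DMSO replicate A of the 6 libraries left out in turn, and by 0.71 ± 0.14 on the TMM scale (0.00126; 1.46% of all genes), lost without DMSO replicate B (0.51, 0.0642). TAF12 rose there on the TMM scale (0.46, 0.0203), a call that ended without either of DMSO replicates A and B and either of dTAG7 replicates A and C, each left out alone (adjusted p 0.0716 to 0.123). In MED12-dTAG cells GTF2B was at 26.6, 31.4 and 24.9 CPM, against 25.2, 9.91 and 16 CPM in DMSO. It rose on the TMM scale alone (0.65 ± 0.21, 0.0406; 3.06% of all genes), and gave 0.46 (0.279) without DMSO replicate B, the library that stood apart. MNAT1 also rose there on the TMM scale (0.44, 0.0394), and neither was called without DMSO replicate B or dTAG7 replicate B or C.

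Some comparisons gave no member call. Per spike-in edgeR called 0 members in MED12-dTAG cells (4.97% of all genes in either direction; 4 members at an unadjusted p under 0.05), 0 in MED28-dTAG (4.84%; 2), 0 in MED1-dTAG (0%; 0) and 0 in wild-type cells with dTAG7 (0%; 1), and DESeq2 also called 0 in each. By TMM edgeR called 0 in MED28-dTAG (6.43% of all genes in either direction; 4 members at an unadjusted p under 0.05), where DESeq2 called 1. It called 0 in MED1-dTAG (0.00776% of all genes in either direction; 0) and 0 in wild-type cells with dTAG7 (0%; 1), where DESeq2 called 0. The member under 0.05 in wild-type cells was CDK7, at 5.05, 4.1 and 5.43 CPM with dTAG7 against 1.59, 3.33 and 0.764 CPM in DMSO (37 against 12 counts; adjusted p = 0.992 per spike-in).

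Whether the dTAG7 effect differed among the 8 Mediator lines was tested with an F test over their effects. Per spike-in 9 members differed, where 46.2% of all genes did: TAF5 (F = 11.7, adjusted p = 1e-07), TAF11 (0.000341), GTF2E2 (0.000554), GTF2H1 (0.00228), TAF3 (0.00707), GTF2F1 (0.00946), GTF2F2 (0.0141), ERCC3 (0.024) and TAF1 (0.0381). By TMM 5 differed, where 12.4% of all genes did: TAF5 (0.0044), TAF3 (0.00533), GTF2A1 (0.0194), GTF2B (0.039) and GTF2H1 (0.0403). TAF5 was lowest by TMM in MED14-dTAG cells and at -0.01 in MED1-dTAG, TAF3 was highest in MED10-dTAG and at -0.13 in MED12-dTAG, and GTF2H1 was lowest in MED10-dTAG. GTF2B ran between -0.12 in MED6-dTAG and 1.04 in MED14-dTAG cells, and GTF2A1 between -0.09 in MED1-dTAG and 0.9 in MED14-dTAG cells.

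**Figure D4:**
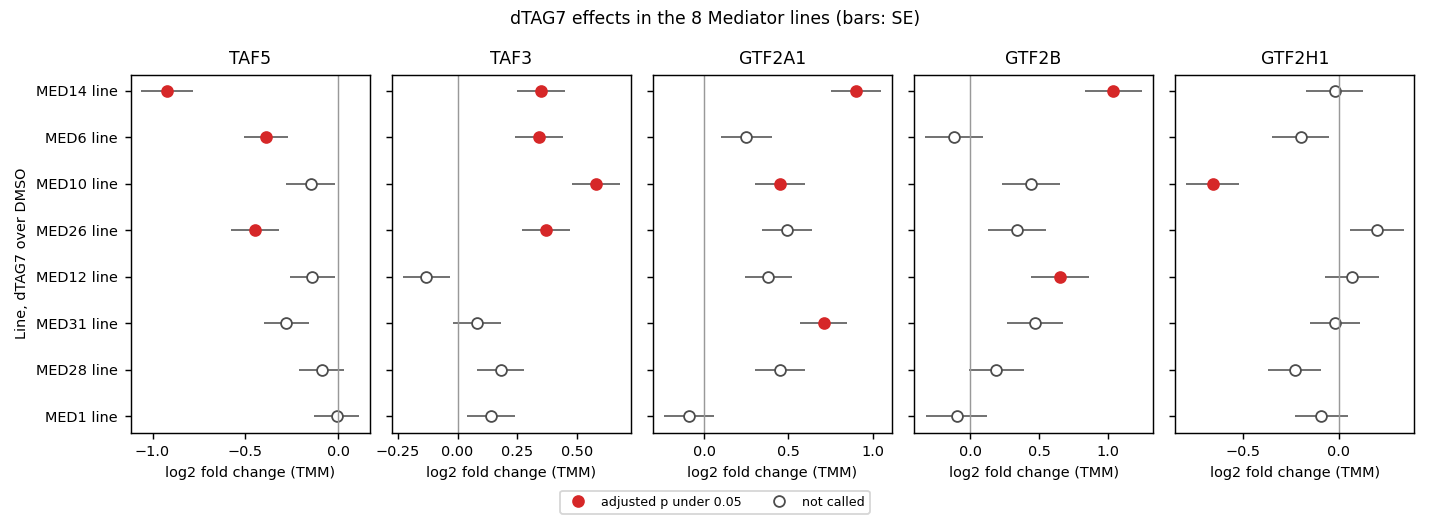
Log2 fold change on the TMM scale of dTAG7 over DMSO, with its SE, in the 8 Mediator lines for the 5 members whose effect differed among lines, red where the adjusted p was under 0.05 and open otherwise. TAF5 is at -0.92 in MED14-dTAG and -0.01 in MED1-dTAG cells, TAF3 is highest in MED10-dTAG (0.58), and GTF2H1 is called in MED10-dTAG cells only (-0.66).

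Each tagged line was also set against wild-type cells, as the dTAG7 effect in the line minus the dTAG7 effect in wild type. Per spike-in all 29 members were lower in CDK9-dTAG cells (93.9% of all genes) and 19 in MED14-dTAG cells (57.1%). There were 3 in MED6-dTAG (10.9%), 2 in MED10-dTAG (14.1%) and 1 in MED26-dTAG cells (1.31%), the last being TAF5 with a difference of -0.72 (adjusted p = 0.0496). The difference for CDK7 in MED10-dTAG cells (-2.46 ± 0.76, 0.0205) rests on a few counts and on the high wild-type dTAG7 libraries given above. On the TMM scale 9 members were lower and 2 higher in CDK9-dTAG cells (23% and 15.7% of all genes), 2 lower and 3 higher in MED14-dTAG (10.3% and 6.17%), and TAF3 alone was higher in MED10-dTAG cells (0.67; 2.61%). The GTF2B differences from wild type were -1.32 in CDK9-dTAG and 1.28 in MED14-dTAG cells, and those of TAF5 were -2.58 and -0.95.

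dBET6 and THAL-SNS-032 were given at different doses, 100 nM and 250 nM, so the comparison concerns these doses. Per spike-in 25 of 29 members were lower with dBET6 than with THAL-SNS-032, where 53.4% of all genes were. The members' median difference was -1, beside -0.82 for all genes, and fits that left out a library called 18 to 24 members. TBP, whose levels under both compounds are given above, did not overlap between them and was lower with dBET6 by -1.6 ± 0.36 per spike-in (adjusted p = 0.000186), while its TMM difference was -0.85 ± 0.34 (0.147). On the TMM scale edgeR called 0 members different between them, where 4.62% of all genes were called, and 4 members had an unadjusted p under 0.05. CDK9-dTAG cells with 500 nM dTAG7 and wild-type cells with 250 nM THAL-SNS-032 differ in cell line, compound and dose, which cannot be told apart here. For TAF5 the effect in CDK9-dTAG cells minus the THAL-SNS-032 effect was -1.46 ± 0.36 per spike-in (adjusted p = 0.0135), the 1 member called, where 2.23% of all genes were lower. On the TMM scale it was -1.45 for TAF5 (0.00735) and -0.94 for GTF2E2 (0.0446, lost in 11 of 12 fits that left out a library), where 3.68% of all genes were lower. Without dTAG7 replicate A of CDK9-dTAG cells the TAF5 values were -1.09 (0.278) and -1.21 (0.169), and without THAL-SNS-032 replicate C the spike-in value was -1.38 (0.0508).

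Between the DMSO libraries of a line and of wild type, 6 member differences were called per spike-in and 3 on the TMM scale, summed over the 9 lines. All 9 comparisons share the wild-type DMSO libraries, so their calls are not independent. Per spike-in the median gene itself differed by 0.23 in MED28-dTAG, -0.19 in MED14-dTAG, 0.07 in MED31-dTAG and -0.06 in MED12-dTAG cells. Of all genes, 13.5% were called on the TMM scale in either direction in MED12-dTAG, 9.39% in MED31-dTAG and 5.85% in MED14-dTAG cells, and 10.4% per spike-in in MED14-dTAG cells. TAF10, a histone-fold TAF shared with SAGA, was at 35.8, 41.5 and 35.3 CPM in MED14-dTAG and at 42, 42.7 and 54.2 CPM in MED12-dTAG cells, against 68.4, 63.8 and 55 CPM in wild type. It was lower by -0.73 ± 0.14 per spike-in (adjusted p = 0.000167; 8.98% of all genes) and -0.53 on the TMM scale (0.00251; 3.21%) in MED14-dTAG cells, and by -0.44 (0.0334; 4.42%) and -0.4 (0.0181; 5.7%) in MED12-dTAG. GTF2A2 was at 84.7, 82.6 and 75.7 CPM in MED31-dTAG cells, against 56.5, 58.8 and 59.6 CPM in wild type, which was 0.48 per spike-in (0.0372; 6% of all genes) and 0.39 on the TMM scale (0.0322; 5.28%). Per spike-in alone, TAF13 was higher in MED31-dTAG (0.67, 0.0282) and TAF8 (0.54, 0.0393; 1.86% of all genes) and TAF12 (0.5, 0.0482) in MED28-dTAG cells. Of these 9 calls, the one for TAF10 in MED14-dTAG per spike-in held without any single library.

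The genes of partner complexes gave the following counts, which were not repeated under the alternatives or without single libraries. Per spike-in all of those tested fell in CDK9-dTAG cells but 1 of 16 SAGA partners, which was not called. With dBET6 and with THAL-SNS-032 all of them fell. In these treatments a rise by TMM is therefore relative to the bulk of genes. In CDK9-dTAG cells on the TMM scale, 13 of 31 Mediator subunit genes fell and 1 rose, with a median of -0.6, among them MED27 (-1.38), MED8 (-1.65) and MED17 (-1.62). Of 14 genes of SL1 and the polymerase III factors 9 fell and 1 rose, including GTF3C4 (-1.77), GTF3C5 (-1.54) and GTF3C2 (-1.36), DNA-binding or bridging parts of TFIIIC. Of 16 SAGA partners 8 fell and 5 rose, including TADA1 (-3.6), an adaptor subunit, which fell, and ENY2 (0.74), a deubiquitinase-module subunit, which rose. Of 11 polymerase II subunit genes 1 fell (POLR2D, -1.36) and 4 rose, among them POLR2L (0.95) and POLR2E (0.78). Of 10 excision repair partners of TFIIH 2 fell and 4 rose, among them the damage sensors XPC (1.21) and DDB2 (0.95). Of 6 TBP regulators and paralogs 1 fell (TBPL1, -1.35) and 2 rose (DRAP1, 1.08, and BTAF1, 0.75). The members' 10 lower and 5 higher of 29 stand beside 27% and 21.1% of all genes.

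With dBET6, where 23.2% of all genes fell and 18.2% rose on the TMM scale, 14 of the 31 Mediator subunit genes fell and 0 rose. The SL1 and polymerase III genes gave 6 lower and 2 higher of 14 there, and the SAGA partners 6 lower and 2 higher of 16. The polymerase II subunit genes gave 2 lower and 3 higher of 11, the excision repair partners 2 lower and 2 higher of 10, and the TBP regulators 0 lower and 2 higher of 6. With THAL-SNS-032, where 16% of all genes fell and 14.1% rose, 7 Mediator subunit genes fell and 1 rose. The SL1 and polymerase III genes gave 6 lower and 1 higher, and the SAGA partners 5 lower and 3 higher. The polymerase II subunit genes gave 1 lower and 3 higher, the excision repair partners 0 lower and 2 higher, and the TBP regulators 0 lower and 2 higher.

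In MED14-dTAG cells, where 16.6% of all genes fell and 13.4% rose on the TMM scale, 5 Mediator subunit genes fell and 5 rose of 31, shares near those of all genes. Of the 14 SL1 and polymerase III genes 5 fell and 0 rose, and of the 16 SAGA partners 3 fell and 3 rose. The excision repair partners gave 1 lower and 3 higher of 10, and the TBP regulators 2 lower and 0 higher of 6. POLR2A, the largest polymerase II subunit, rose by 1.62 (adjusted p = 2.06e-22) and was the 1 of 11 polymerase genes called on that scale. Per spike-in 10 of the 11 fell and 1 rose. POLR2A also rose by TMM in MED26-dTAG (1.4), MED10-dTAG (1.26), MED31-dTAG (1.25), MED6-dTAG (1.11) and MED28-dTAG cells (0.71). It was not called in MED12-dTAG (0.16) or MED1-dTAG cells (0.21).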

How the data were processed

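Total RNA of 66 KBM7 libraries, 350 ng each, was read from transcript 3′ ends with 50 bp single reads (QuantSeq), with spike-ins added to the lysates, per the labels' protocols. The authors deposited raw counts per gene and a loess-normalized signal table, used here as an alternative. Tools listed in the submitters' processing notes are bedtools 2.26.0, HTSeq 0.6.0 and STAR 2.5.2b, and the build is hg38; the counting strand is not given in the sources used here.

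Groups were taken from the labels. The members and lists were chosen with earlier results of these data known. The quasi-likelihood F test of edgeR 4.0.16, run in R 4.3.3, was applied to the counts, with a mean for each of 22 groups over all 66 libraries. The library size was the ERCC and SIRV spike-in total, or, separately, the endogenous total with TMM factors. After filterByExpr, 12515 and 12892 genes were tested, Benjamini-Hochberg adjustment ran over all of them, and an adjusted p under 0.05 was a call. The SE of a log2 fold change is its size over the square root of F. CPM are per spike-in. Counting intervals are exact and cover counting error only. Scripts were tested on simulated data.

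TBP, TAF1, GTF2B and CDK7 were always described. In each comparison up to 6 members of lowest p on the TMM scale were named, as well as members called against the direction of the median gene and up to 3 of the largest falls and rises at 5 CPM or more. Promoter sequences and starts are from RefSeq (GRCh38.p14).

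Alternatives were TMM scaling, ERCC or SIRV spike-ins alone, DESeq2 1.42.0, limma 3.58.1 on log2(signal + 1), no filter or at least 10 counts in most libraries, the replicate letter as a block, the 6 libraries of a comparison alone, median-of-ratios factors, and leaving out each library.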

Additional observations from a re-analysis of the deposited data

Results flagged for a closer look

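The following differences between lines or treatments passed a test of the difference itself. On the TMM scale the dTAG7 effect differed among the 8 Mediator lines for TAF5 (adjusted p = 0.0044), TAF3 (0.00533), GTF2A1 (0.0194), GTF2B (0.039) and GTF2H1 (0.0403).

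On the same scale the dTAG7 effect in CDK9-dTAG cells minus that in wild-type cells was -2.58 for TAF5, -1.71 for GTF2E2, -1.53 for GTF2E1, -1.32 for GTF2B and -1.1 for CCNH. It was -0.96 for TAF8, -0.82 for TAF12, -0.62 for ERCC3 and -0.61 for TAF11, and the members higher in CDK9-dTAG cells were GTF2H3 (0.74) and TAF3 (0.4). The GTF2B difference was lost in 4 of 12 fits that left out a library.

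The effect in MED14-dTAG minus that in wild-type cells was -0.95 for TAF5 and -0.56 for GTF2E2, and 1.28 for GTF2B, 0.93 for GTF2A1 and 0.44 for TAF3, the last lost in 5 of 12 such fits. In MED10-dTAG minus wild-type cells it was 0.67 for TAF3. The effect in CDK9-dTAG cells minus the THAL-SNS-032 effect was -1.45 for TAF5 and -0.94 for GTF2E2.

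Per spike-in 9 members differed among the 8 Mediator lines, where 46.2% of all genes did. Against wild type 29 were lower in CDK9-dTAG (93.9% of all genes) and 19 in MED14-dTAG cells (57.1%). There were 3 in MED6-dTAG (10.9%), 2 in MED10-dTAG (14.1%) and 1 in MED26-dTAG cells (1.31%). For 1 member the effect was lower in CDK9-dTAG cells than with THAL-SNS-032, as for 2.23% of all genes.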

How the results depend on the processing

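Called on both scales with opposite signs, lower per spike-in and higher by TMM, were TAF13 (-2.06 and 0.79), GTF2H3 (-2.16 and 0.68), MNAT1 (-2.26 and 0.59), TAF10 (-2.44 and 0.39) and TAF3 (-2.54 and 0.3) in CDK9-dTAG cells, TAF13 with dBET6 (-2.71 and 0.87), TAF13 (-1.99 and 0.87) and MNAT1 (-2.35 and 0.47) with THAL-SNS-032, and TAF3 in MED14-dTAG cells (-0.34 and 0.35). Within a scale, no called value changed sign under the alternatives run. With TMM scaling in place of spike-ins, the members called were 15 in CDK9-dTAG, 12 with dBET6, 7 with THAL-SNS-032, 9 in MED14-dTAG, 6 in MED10-dTAG and 2 each in MED12-dTAG, MED26-dTAG and MED31-dTAG cells. With the 6 libraries of a comparison alone, the spike-in counts were 0 in MED6-dTAG, 8 in MED10-dTAG, 2 in MED26-dTAG and 1 in MED28-dTAG, and the TMM counts 0 in MED6-dTAG, 0 in MED12-dTAG and 2 in MED28-dTAG. With limma on the loess-normalized signal they were 1 in MED6-dTAG and 0 in MED26-dTAG and MED31-dTAG. In MED28-dTAG cells on the TMM scale the stricter filter and DESeq2 each called 1. The cause of these changes was not tested. The share of all genes called was kept for TMM scaling but not for the other alternatives or the fits without single libraries. Member counts from the latter cannot be set against all genes.

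The replicate letters did not pair the libraries (in 0 of 12 comparisons did every letter correlate above 0.1; range -0.22 to 0.06). With the replicate block 20 members were called per spike-in and 8 on the TMM scale in MED14-dTAG cells, and 4 per spike-in in MED6-dTAG cells. The block ended 3 member calls per spike-in and 2 on the TMM scale, TAF12 in MED6-dTAG (adjusted p = 0.0516) and TAF8 in MED14-dTAG (0.0528).

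Leaving out each library in turn gave these numbers of members called. Per spike-in they were 29 to 29 in CDK9-dTAG, 28 to 29 with dBET6, 28 to 29 with THAL-SNS-032, 17 to 21 in MED14-dTAG, 1 to 6 in MED6-dTAG, 1 to 3 in MED10-dTAG, 0 to 2 in MED12-dTAG, 0 to 1 in MED26-dTAG, 0 to 1 in MED31-dTAG, and 0 to 0 in MED1-dTAG, MED28-dTAG and wild-type dTAG7. On the TMM scale they were 8 to 15 in CDK9-dTAG, 8 to 12 with dBET6, 5 to 6 with THAL-SNS-032, 5 to 7 in MED14-dTAG, 0 to 3 in MED6-dTAG, 2 to 4 in MED10-dTAG, 0 to 2 in MED12-dTAG, 0 to 1 in MED26-dTAG, 0 to 2 in MED31-dTAG, and 0 to 0 in MED1-dTAG, MED28-dTAG and wild-type dTAG7. Lines minus wild type, summed over 9 lines, gave 44 to 58 per spike-in (54 with all libraries) and 13 to 18 (17) on the TMM scale. dBET6 against THAL-SNS-032 gave 18 to 24 (25) and 0 to 0, CDK9-dTAG minus THAL-SNS-032 gave 0 to 1 and 0 to 2, and DMSO baselines gave 1 to 7 (6) and 0 to 4 (3). The lowest counts came without dTAG7 replicate A (CDK9-dTAG, 8), DMSO replicate A (MED14-dTAG, 5), DMSO replicate C or dTAG7 replicate A (MED6-dTAG), DMSO or dTAG7 replicate B (MED10-dTAG, 2), DMSO replicate B or dTAG7 replicate B or C (MED12-dTAG, 0), DMSO replicate B (MED31-dTAG, 0) and wild-type DMSO replicate A (baselines, 1 and 0).

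The 9 libraries of the strongest treatments limit CDK7, TAF4 and GTF2B most, and the stricter filter removed CDK7 and TAF4. The F test among Mediator lines was not repeated without single libraries.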
